A study of Oryza sativa with 4 samples.

Results

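The glycolysis enzyme genes described here are 39 rice genes of 12 enzyme groups: hexokinase, phosphoglucose isomerase (PGI), pyrophosphate-dependent phosphofructokinase (PFP), ATP-dependent phosphofructokinase (PFK), aldolase, triose phosphate isomerase (TPI), cytosolic glyceraldehyde-3-phosphate dehydrogenase (GAPC), phosphoglycerate kinase (PGK), phosphoglycerate mutase (PGM), enolase, pyruvate kinase and cytosolic malate dehydrogenase (MDH). The genes were selected on enzyme class, with earlier results of these data known, and on being listed with a value in the table of either cultivar. The second condition held for 28 of the 39, out of 20563 genes listed in either table: 15 were in both tables, 2 in that of 93-11 only, 11 in that of Nipponbare only, and the other 11 in neither. The share in both tables was 41.7% of all listed genes and 53.6% of the listed glycolysis genes. Of all genes, 13486 were listed for 93-11 and 15657 for Nipponbare, and of the glycolysis genes 17 and 26. Whether the listing of glycolysis genes differs from that of all genes was not tested. The 11 genes in neither table are not analysed here.

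Bulk RNA was sequenced from protoplasts, cells freed of their walls by enzymes, of 2 rice cultivars: 93-11 (indica, 2 libraries) and Nipponbare (japonica, 2 libraries). All libraries came from seedlings of 3 days grown in Hoagland's nutrient solution at 28°C, with 10 hours of light and 14 hours of dark. Tips of 5 mm were cut off 800 crown roots and digested with cellulase, macerozyme, hemicellulase and pectolyase. For all libraries the labels give a first digestion of 30 minutes and a digestion of 2.5 hours. No untreated root tissue is among the samples, so every value is that of digested cells. Separate digestions for the replicates are not stated in the labels. The p-values thus reflect only how far the replicate libraries spread, possibly for technical reasons, and cultivar and digestion cannot be told apart.

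Glycolysis converts glucose to pyruvate in the cytosol and yields ATP and NADH. Plants run the step from fructose 6-phosphate to fructose 1,6-bisphosphate with a pair of enzymes: PFK, which spends ATP in an irreversible reaction, and PFP, which uses pyrophosphate and works in both directions. In roots the pathway feeds respiration, and under low oxygen, when the mitochondria slow down, it becomes a main source of ATP. Most enzymes are encoded by small gene families whose members differ in tissue and compartment.

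Levels are in RPM, reads scaled to a common library total. The deposited values had lost their decimal points above 1 RPM and were restored from the rule that each value is a whole number of reads. Totals implied by the values ran from 21504426 to 21504715 reads, so 1 read is worth 0.0465 RPM. If both read numbers of a gene in a cultivar truly end in 0, the restored level is 10 times too low, which the tables cannot show for values above 1 RPM. RPM is not corrected for transcript length, so levels are compared between libraries for the same gene and not between genes. Of 6 root markers 5 were in the 93-11 table and 6 in that of Nipponbare, with summed levels of 7449 to 8000 RPM and 3336 to 3367 RPM. Most reads of these sums were those of RCc3, a root gene of the lipid transfer protein-like family, at 7583 ± 387 and 3350 ± 22.8 RPM (SD, n = 2). The patterning genes SHR1, SCR1 and QHB were listed at 0 reads in Nipponbare, and the stem cell gene PLT1 was at 117 ± 2.47 RPM in 93-11 against 0.209 ± 0.0329 RPM. Green tissue markers summed to at most 6.70 RPM in 93-11 (2 of 5 listed) and 0.837 RPM in Nipponbare (3 of 5 listed, of which RBCS3 and CAB1R at 0). Marker levels thus differed between the cultivars alongside the glycolysis genes, and their part in the results below was not tested. In bulk RNA, fewer cells of a type and less RNA per cell cannot be told apart.

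The 15 genes in both tables differed between the cultivars in opposite directions. By limma on log2(RPM + 1), 9 were higher in 93-11 and 6 higher in Nipponbare at an adjusted p of 0.05, adjusted over all 7269 genes tested. Of all genes tested 96.9% were called, 59.0% higher in 93-11 and 37.9% higher in Nipponbare, and for 98.5% the libraries of the cultivars did not overlap. The counts of the 15 genes are close to this background and say nothing particular about glycolysis. All 15 had passed the filter of a mean of 1 RPM over the 4 libraries, 2 of them (LOC_Os09g12650 and LOC_Os06g40640) only through their level in Nipponbare. The direction of these 2 was thus set by the filter, and their calls are no evidence of it. The median log2 difference, 93-11 minus Nipponbare, was 1.92 for the 15 genes and 1.44 for all genes tested, with 9 of the 15 above the latter and 6 below it. Under quantile normalization the split of the 15 was 11 against 4, because a PFK and a pyruvate kinase gene turned. The share of calls that were higher in 93-11 thus rose from 60% to 73.3% for the 15 genes and fell from 60.9% to 56.2% for all genes, and whether the 15 differ from all genes was not tested. That setting also moved 7 differences by over 1.5-fold without turning them: HXK8 to 2.05, HXK2 to 0.97, LOC_Os06g13810 to 3.13, LOC_Os06g40640 to -2.42, OsPK1 to -0.37, LOC_Os12g05110 to -1.33 and LOC_Os10g33800 to 4.19.

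**Figure D1:**
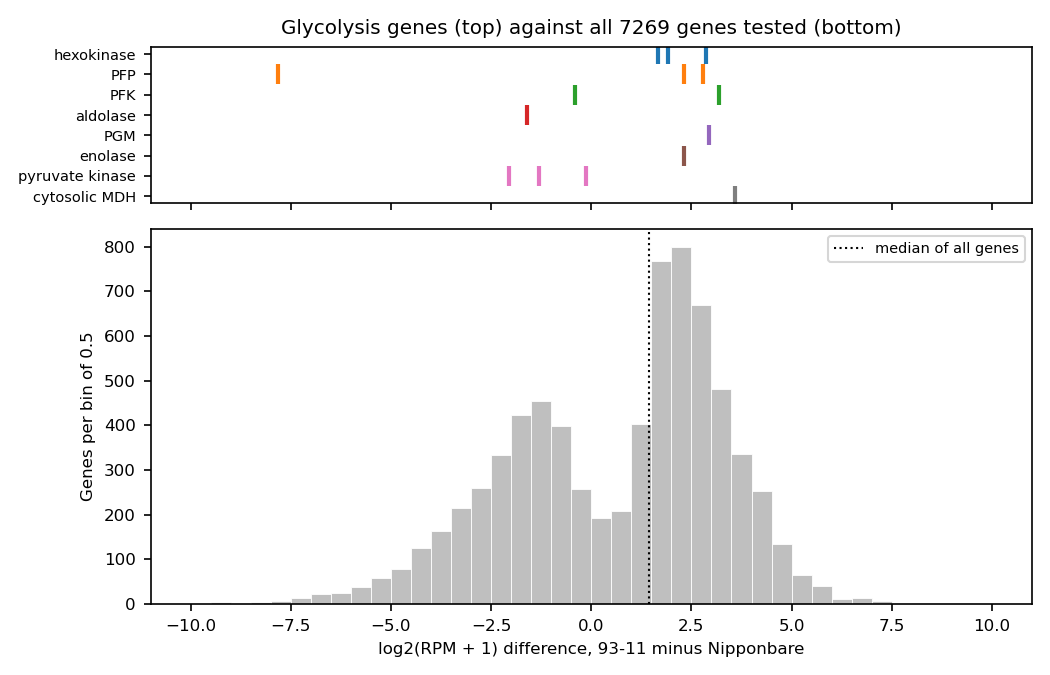
Log2(RPM + 1) differences, 93-11 minus Nipponbare, of the 15 glycolysis genes in both tables (upper panel, 1 tick per gene, by enzyme) and of all 7269 genes tested (lower panel, genes per bin of 0.5, dotted line at their median of 1.44). The differences of all genes fall into 2 humps on either side of equality, and the glycolysis genes lie in both.

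Entry into the pathway was represented by hexokinases, which phosphorylate glucose and of which some members also act as glucose sensors. All 3 in both tables were higher in 93-11, as were 59.0% of all genes tested. HXK5 (LOC_Os05g44760), a known glucose sensor of rice, was at 63.5 and 71.3 RPM in the 93-11 libraries and at 21.3 and 19.9 RPM in those of Nipponbare. The groups did not overlap, and the mean was 3.27-fold higher in 93-11 (log2 difference 1.66, SE 0.0781, adjusted p = 1.71e-05). HXK2 (LOC_Os05g45590) was at 13.3 and 14.6 RPM against 4.09 and 2.09 RPM. Its Nipponbare libraries differed 1.96-fold from each other, yet both lay below those of 93-11 (log2 difference 1.92, SE 0.253, adjusted p = 0.00109). This call was lost without 93-11 replicate 1 (limma adjusted p = 0.0791) and without 93-11 replicate 2 (adjusted p = 0.0870).

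HXK8 (LOC_Os01g09460) was at 24.0 and 23.8 RPM in 93-11 and at 2.42 RPM, 52 reads, in each Nipponbare library. The mean was 9.88-fold higher in 93-11 (log2 difference 2.86, SE 0.0684, adjusted p = 2.05e-06). A possible error of 10 times in the restored level matters here: Nipponbare values 10 times higher would be 24.2 RPM, level with 93-11. The same error would put the Nipponbare means of HXK5 and HXK2 at 206 and 30.9 RPM, above the 67.4 and 14.0 RPM of 93-11. HXK6 (LOC_Os01g53930), another glucose sensor, and HXK4 (LOC_Os07g09890) were listed for Nipponbare only, at 9.90 and 9.21 RPM and at 2.51 and 1.63 RPM. HXK1 and HXK7 were in neither table. Summed over the 3 shared genes, hexokinase stood at 105 ± 6.28 RPM in 93-11 and 26.1 ± 2.43 RPM in Nipponbare.

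Phosphoglucose isomerase, which turns glucose 6-phosphate into fructose 6-phosphate, could not be compared. PGI-A (LOC_Os03g56460) was listed for 93-11 only, at 192 and 191 RPM, and PGI-B was in neither table.

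**Figure D2:**
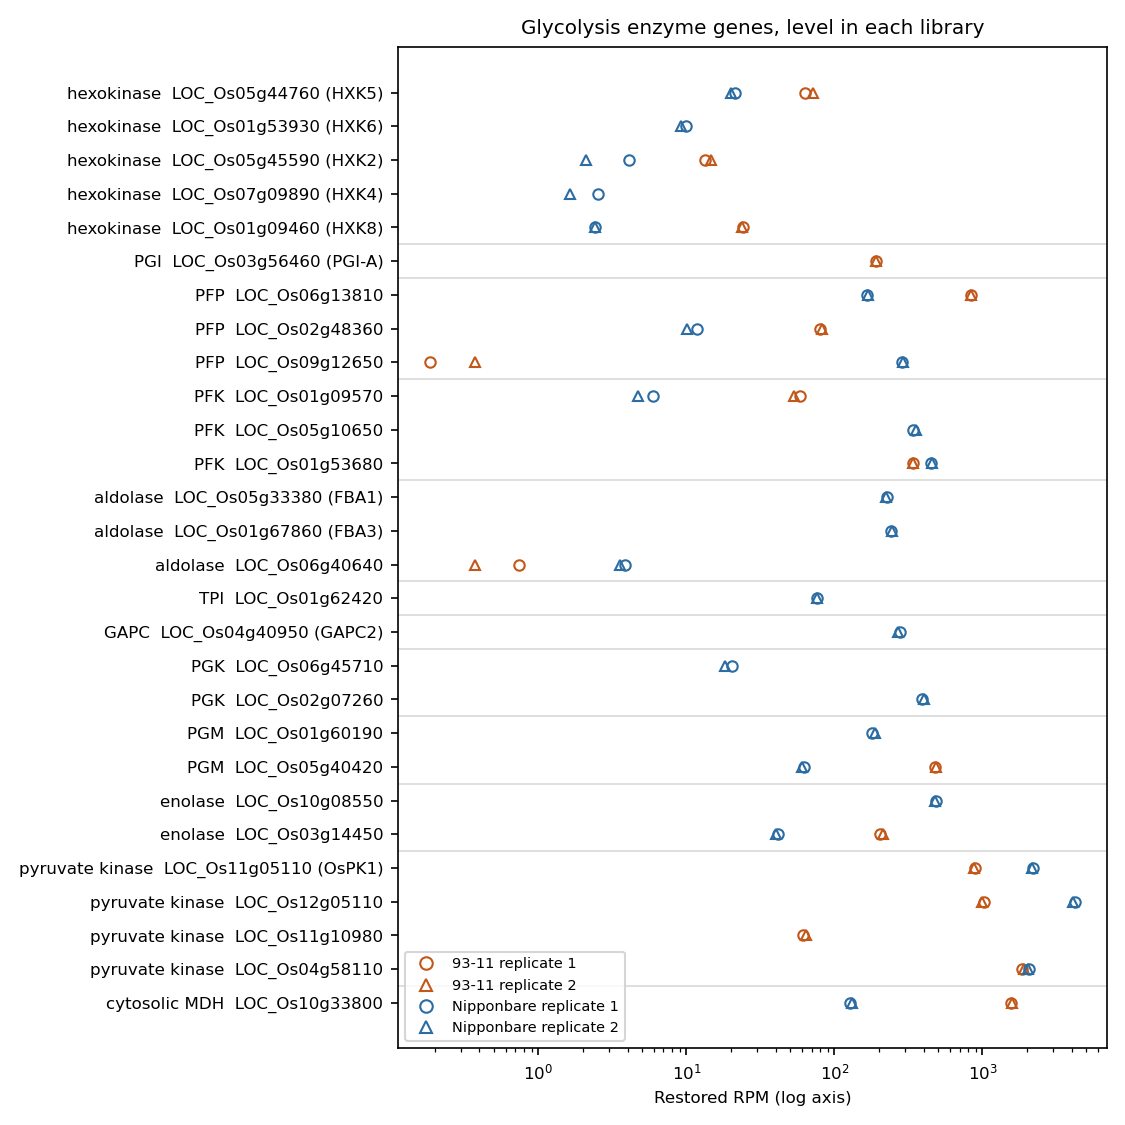
Restored RPM (log axis) of the 28 listed glycolysis genes in each library, by enzyme step from hexokinase to MDH. Circles are replicate 1 and triangles replicate 2, orange for 93-11 and blue for Nipponbare, and a gene with 1 colour is listed for that cultivar only; the widest gap between colours is that of the PFP gene LOC_Os09g12650.

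The PFP genes held the largest contrast among the glycolysis genes. LOC_Os09g12650 had 4 and 8 reads in the 93-11 libraries, 0.186 and 0.372 RPM, and was at 287 and 290 RPM in those of Nipponbare. It was thus nearly unread in one cultivar and well covered in the other, 1034-fold higher in Nipponbare (log2 difference -7.83, SE 0.0891, adjusted p = 7.55e-07). The fold rests on those 12 reads of 93-11 and was 776 without 93-11 replicate 1 and 1551 without 93-11 replicate 2. The values of 93-11 had kept their decimal points, and those of Nipponbare could only be too low. The gene passed the filter only through Nipponbare, so its direction was set by the filter and its call is no evidence of it. Among all genes tested 0.151% had a lower difference.

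The other 2 PFP genes in both tables went the opposite way. LOC_Os06g13810 was at 833 and 842 RPM in 93-11 and at 167 and 168 RPM in Nipponbare. The replicates lay close together, and the mean was 5.01-fold higher in 93-11 (log2 difference 2.32, SE 0.0285, adjusted p = 7.69e-07). LOC_Os02g48360 was at 79.5 and 81.8 RPM against 11.8 and 10.1 RPM, 7.38-fold higher in 93-11 (log2 difference 2.78, SE 0.0839, adjusted p = 3.75e-06). Both directions rest on the restored power of 10: with Nipponbare values 10 times higher the log2 differences would be -0.996 and -0.43, called by limma in favour of Nipponbare (adjusted p = 2.03e-06 and 0.00494). PFP enzymes are built from subunits of 2 kinds, alpha and beta, and the sources used here do not say which kind each identifier encodes. The sum over the 3 genes was 918 ± 8.41 RPM in 93-11 and 467 ± 1.91 RPM in Nipponbare, and the largest contributor in reads was LOC_Os06g13810 in 93-11 and LOC_Os09g12650 in Nipponbare. LOC_Os08g25720 was in neither table.

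The 2 PFK genes in both tables also split. LOC_Os01g09570 stood at 59.0 and 53.7 RPM in the 93-11 libraries and 5.91 and 4.74 RPM in the others, 10.6-fold higher in 93-11 (log2 difference 3.18, SE 0.113, adjusted p = 6.34e-06). Here too, Nipponbare values 10 times higher would leave no call (log2 difference 0.09, limma adjusted p = 0.511). LOC_Os01g53680 was at 340 RPM in both 93-11 libraries and at 448 and 454 RPM in those of Nipponbare. The groups did not overlap, but the difference was small, 1.33-fold (log2 difference -0.41, SE 0.0282, adjusted p = 7.83e-05), and turned to 0.37 in favour of 93-11 under quantile normalization. With 93-11 values 10 times higher, the mean of LOC_Os01g53680 there would be 3403 RPM, above the 451 RPM of Nipponbare. LOC_Os05g10650 was listed for Nipponbare only, at 340 and 354 RPM, and LOC_Os06g05860 and LOC_Os09g30240 were in neither table.

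**Figure D3:**
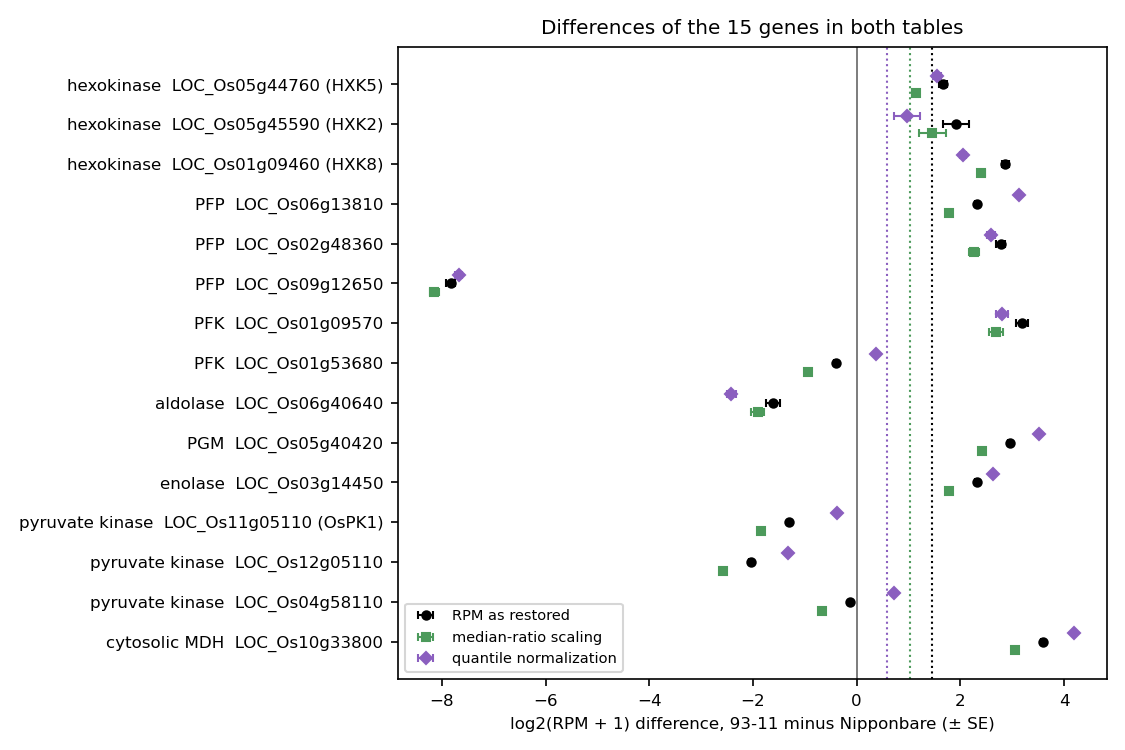
Log2(RPM + 1) differences, 93-11 minus Nipponbare, with their SE for the 15 glycolysis genes in both tables under 3 scalings (black circles: RPM as restored; green squares: median-ratio scaling; purple diamonds: quantile normalization). Dotted lines mark the median of all genes under each scaling, 1.44, 1.03 and 0.59; only LOC_Os01g53680 and LOC_Os04g58110 cross 0 between scalings.

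From aldolase to PGK, 1 of the 39 genes was in the 93-11 table. Aldolase, which cuts fructose 1,6-bisphosphate into triose phosphates, had 3 listed genes, of which FBA1 (LOC_Os05g33380) at 226 and 224 RPM and FBA3 (LOC_Os01g67860) at 242 and 246 RPM were in the Nipponbare table only. LOC_Os06g40640 was in both, at 0.744 and 0.372 RPM (16 and 8 reads) in 93-11 and 3.86 and 3.58 RPM in Nipponbare. It was low in both cultivars and 6.67-fold higher in Nipponbare (log2 difference -1.61, SE 0.134, adjusted p = 0.000160). The fold was 10.0 without 93-11 replicate 1 and 5.00 without 93-11 replicate 2. The direction of this gene was set by the filter, which it passed only through Nipponbare.

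At the triose phosphate steps and PGK, the genes of the 39 that were listed were in the Nipponbare table only. TPI, which interconverts the triose phosphates, was represented by LOC_Os01g62420 at 75.7 and 76.1 RPM. GAPC2 (LOC_Os04g40950), whose enzyme oxidizes glyceraldehyde 3-phosphate and makes NADH, was at 278 and 267 RPM. The PGK genes, whose enzyme makes the first ATP of the pathway, were at 388 and 405 RPM (LOC_Os02g07260) and at 20.5 and 18.3 RPM (LOC_Os06g45710). The value of LOC_Os06g45710 in Nipponbare replicate 1 was raised 10 times to match replicate 2, since it could also be read as 44 reads. None of these 4 genes, nor FBA1 or FBA3, was in the 93-11 table, which shows nothing about their level there.

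Next in the pathway, PGM moves the phosphate of 3-phosphoglycerate and enolase forms phosphoenolpyruvate. The single gene of each in both tables was higher in 93-11, as were 59.0% of all genes tested. The PGM gene LOC_Os05g40420 stood at 479 and 485 RPM in the 93-11 libraries and 62.4 and 60.6 RPM in the others, 7.84-fold higher in 93-11 (log2 difference 2.95, SE 0.0355, adjusted p = 7.55e-07). The enolase gene LOC_Os03g14450 was at 202 and 214 RPM against 41.2 and 40.5 RPM, 5.09-fold higher (log2 difference 2.32, SE 0.0467, adjusted p = 1.49e-06). With Nipponbare values 10 times higher both would turn, to -0.35 for the PGM gene (limma adjusted p = 0.000184) and -0.97 for the enolase gene (adjusted p = 1.15e-05). Each of these enzymes had a further gene in the Nipponbare table, which could not be compared: the PGM gene LOC_Os01g60190 at 181 and 187 RPM and the enolase gene LOC_Os10g08550 at 485 and 477 RPM.

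Pyruvate kinase makes pyruvate and ATP in the last reaction. Its 3 compared genes among the 39 were all higher in Nipponbare, as were 37.9% of all genes tested. Among further pyruvate kinase genes, described below, 4 of 5 were higher in 93-11. OsPK1 (LOC_Os11g05110) was at 885 and 881 RPM in 93-11 and at 2203 and 2164 RPM in Nipponbare. Its 2.47-fold difference (log2 -1.30, SE 0.0241, adjusted p = 1.32e-06) depends on Nipponbare replicate 2 having been raised 10 times to match replicate 1, and was -0.37 on the log2 scale under quantile normalization. LOC_Os12g05110 was at 1020 and 995 RPM against 4203 and 4106 RPM, 4.13-fold higher in Nipponbare (log2 difference -2.04, SE 0.0267, adjusted p = 8.28e-07). With 93-11 values 10 times higher, LOC_Os12g05110 and OsPK1 would turn, at means of 10072 and 8834 RPM against 4155 and 2184 RPM in Nipponbare. These genes lie on chromosomes 11 and 12, whose ends carry a recent duplication in rice, so their reads may have been split between near-identical copies and their single values are uncertain.

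LOC_Os04g58110, on another chromosome, was at 1859 and 1900 RPM in 93-11 and at 2062 and 2029 RPM in Nipponbare. The libraries did not overlap, but the difference was 1.09-fold (log2 -0.12, SE 0.0250, adjusted p = 0.00628). It lost its call without Nipponbare replicate 1 (limma adjusted p = 0.207) and without Nipponbare replicate 2 (adjusted p = 0.148), and turned to 0.72 under quantile normalization. With 93-11 values 10 times higher, the mean of LOC_Os04g58110 there would be 18795 RPM, above the 2045 RPM of Nipponbare. The 3 pyruvate kinase genes summed to 8384 ± 120 RPM in Nipponbare, 2.22-fold above the 3770 ± 8.81 RPM of 93-11. The direction of this sum rests on the same restored powers of 10. The sum of all 15 glycolysis genes, of which these 3 made up most, was higher in Nipponbare, at 9569 ± 117 against 7448 ± 58.6 RPM, although 9 of the 15 were lower there. Another pyruvate kinase gene, LOC_Os11g10980, was listed for 93-11 only, at 61.0 and 63.8 RPM.

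Cytosolic MDH, which interconverts malate and oxaloacetate and so exchanges NADH with other compartments, showed the largest difference toward 93-11 among the 15 genes. LOC_Os10g33800 stood at 1548 and 1585 RPM in the 93-11 libraries and 128 and 131 RPM in the others, 12.1-fold higher in 93-11 (log2 difference 3.59, SE 0.0310, adjusted p = 7.28e-07). The replicates lay close together in each cultivar. With Nipponbare values 10 times higher the call would stay, at a log2 difference of 0.27.

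Ratios between genes of the same enzyme within 1 library do not depend on the scaling of the library. The ratio itself mixes level and transcript length, so only its change between the cultivars is read, and a level restored 10 times too low would carry into it. The ratios of all 10 pairs of shared genes of 1 enzyme did not overlap between the cultivars, as for 95.0% of all pairs of tested genes read in every library, so this count says nothing particular about the enzymes. The ratio changed by a factor of 1.46 to 8116 with a median of 2.65. With 2 libraries against 2 an exact permutation test cannot go below p = 0.333, and the ratios were given no test. The PFP pair LOC_Os06g13810 over LOC_Os09g12650 had ratios of 4477 and 2264 in 93-11 and of 0.581 and 0.577 in Nipponbare, a reversal of which of them had more reads.

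Less extreme pairs changed in other enzymes. For PFK, LOC_Os01g09570 over LOC_Os01g53680 had ratios of 0.173 and 0.158 in 93-11 and 0.0132 and 0.0105 in Nipponbare, a factor of 14.1. Among pyruvate kinases, LOC_Os12g05110 over LOC_Os04g58110 was at 0.548 and 0.524 in 93-11 and 2.04 and 2.02 in Nipponbare, a factor of 3.79. The change of this ratio does not depend on the scaling of whole libraries. It does rest on the values of LOC_Os12g05110, which are uncertain for the reasons given above. The smallest factor, 1.46, was that of HXK5 over HXK2, with ratios of 4.76 and 4.87 against 5.22 and 9.51.

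**Figure D4:**
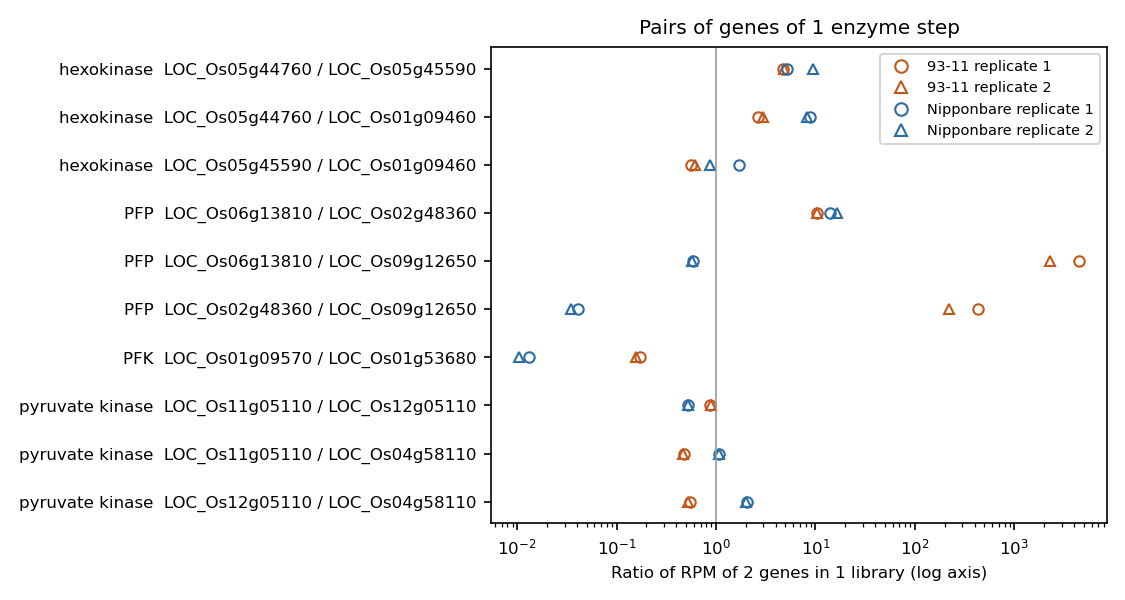
Ratio of RPM of 2 genes of the same enzyme within each library (log axis, line at 1) for the 10 pairs of genes in both tables; circles and triangles are replicates 1 and 2, orange for 93-11 and blue for Nipponbare. In each pair the colours do not overlap, with the widest gap for the pairs that hold the PFP gene LOC_Os09g12650.

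Further isoforms of the same enzymes, among them plastid forms, made up a list of 25 identifiers, of which 21 were in a table, 10 in both and 9 past the filter. Of these 9, limma called 5 higher in 93-11 and 4 higher in Nipponbare, again against 59.0% and 37.9% of all genes. The PFK gene LOC_Os04g39420 passed the filter only through Nipponbare (5.28 RPM, against 0.9998 RPM in 93-11). The GAPDH gene LOC_Os06g45590 passed it only through 93-11 (5.07 RPM, against 0 RPM in Nipponbare), so the direction of both was set by the filter. All 3 further PFK genes were higher in Nipponbare, though LOC_Os05g44922 turned under quantile normalization (log2 0.11). The largest difference was that of the PFK gene LOC_Os10g26570, at 248 ± 0.692 RPM in Nipponbare and 7.93 ± 0.625 RPM in 93-11 (log2 difference -4.80, SE 0.0642, adjusted p = 8.49e-07). Of 5 further pyruvate kinase genes 4 were higher in 93-11, against 0 of the 3 described above. Among them LOC_Os10g42100 was 26.7-fold higher, with 3.74 ± 0.493 RPM in Nipponbare, and LOC_Os07g08340 was at 42.0 ± 1.55 against 1.40 ± 0.132 RPM (log2 differences 4.42 and 4.17). The 93-11 replicate 1 value of LOC_Os07g08340 was raised 10 times to match replicate 2, as were those of LOC_Os01g47080 and LOC_Os03g46910, also among the 4. Whether the sets of pyruvate kinase genes differ in direction was not tested. Listed for 93-11 only were the PGI gene LOC_Os09g29070 (99.1 ± 0.0648 RPM) and the TPI gene LOC_Os09g36450 (93.1 ± 1.71 RPM), so that each cultivar's table held a TPI gene, but a different one. The PGI level and its small SD rest on a 93-11 replicate 1 value raised 10 times.

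Enzymes that feed or leave the pathway were a list of 16 identifiers, of which 11 were in a table, 5 in both and 4 past the filter, and all 4 were called higher in 93-11, as were 59.0% of all genes tested. Under quantile normalization 3 were, and the pyruvate phosphate dikinase gene LOC_Os03g31750 was at -0.19 (limma adjusted p = 0.0509). The phosphoenolpyruvate carboxykinase gene LOC_Os03g15050, whose enzyme forms phosphoenolpyruvate from oxaloacetate, stood at 54.6 ± 1.02 RPM in the 93-11 libraries against 4.21 ± 0.296 RPM in the others (log2 difference 3.42, SE 0.0700, adjusted p = 1.54e-06). The UDP-glucose pyrophosphorylase gene LOC_Os09g38030, which acts between sucrose and hexose phosphates, was at 1221 ± 30.7 against 216 ± 2.93 RPM (log2 difference 2.49), and the phosphoenolpyruvate carboxylase gene LOC_Os09g14670 at 54.8 ± 4.01 against 10.3 ± 0.921 RPM (log2 difference 2.31), where the 93-11 replicate 2 value was raised 10 times to match replicate 1. Listed for 1 cultivar only were the phosphoenolpyruvate carboxylase gene LOC_Os08g27840 in 93-11 (131 ± 1.81 RPM) and the fructokinase gene FRK2 (LOC_Os08g02120) in Nipponbare (106 ± 0.527 RPM). The 93-11 replicate 1 value of LOC_Os08g27840 was raised 100 times, from 1.30 RPM, to match replicate 2, and its level and SD rest on that choice.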

How the data were processed

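The authors deposited 1 table per cultivar with a column of RPM for each of its 2 libraries, per the file headers. Tools named in the submitters' processing notes are HISAT2 (2.0.4) and HTSeq (0.11.2). Not given in the sources used here are the genome build, the annotation, the use of strand and why a gene is listed. Per the labels' protocols, mRNA was captured on oligo(dT) beads.

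Between 61.6% and 76.5% of the deposited values per library had lost their decimal point. Each was restored to the power of 10 that gave whole reads (0 exceptions, tolerance 1e-06 of a read plus 1e-12 of the value) and the closest pair of libraries. This raised 964 genes in 93-11 and 821 in Nipponbare, and 3 and 1 genes with a remaining gap above 0.4 in log10 were left out, none of them a glycolysis gene. The agreement of replicates is therefore partly built in. The listed genes held 42.3% to 55.7% of the library totals. 

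Differences between cultivars were tested with limma 3.58.1 (R 4.3.3, trended variance) on log2(RPM + 1) for 7269 of 8576 shared genes, those whose mean over the libraries reached 1 RPM, with Benjamini-Hochberg adjustment over all of them. This scale understates the change of low genes. The procedure was tested on simulated data. Alternatives were 2 other scalings, another pseudocount, 2 other filters, the replicate number as a block, each library left out, another restoration, and limma's voom on the restored reads, the last added after seeing the data.

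The members and lists were chosen with earlier results of these data known. Enzyme groups follow the order in which the list names them, and the further lists rest on knowledge of the rice literature. The tables and the RefSeq gene table (assembly ASM3414082v1) do not pair these identifiers with names. Names were looked up for 17 of the 39 genes, and each was found on the chromosome its identifier gives, for HXK7 and HXK8 on 2 genes of that chromosome. The other 22 have no name here. All glycolysis genes may be named. Of each further list, the 3 largest called differences, the 2 highest genes listed for 1 cultivar and genes to which a stated limit applies are.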

Additional observations from a re-analysis of the deposited data

How the results depend on the processing

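The counts of glycolysis genes called in each direction stayed within 1.5 times of 9 and 6 under the other scalings, filters, pseudocount, restoration, replicate block, voom and with 1 library left out. They were not counted with lower values 10 times higher. That case was run for 1 gene at a time, for 7 of the 9 genes called toward 93-11, and turned or ended 6 of the 7 calls. HXK5 and HXK2, below 5-fold, were not run. Their Nipponbare means would become 206 and 30.9 RPM, above the 67.4 and 14.0 RPM of 93-11. The calls toward Nipponbare were not run either, and those whose 93-11 values had lost their point would also turn by their means. The median log2 difference of the 15 genes, 1.92, became 1.46 under median-ratio scaling, where the median of all genes moved from 1.44 to 1.03. With a filter at 10 RPM, which 13 of the 15 genes passed, it became 2.32 and the median of all genes fell to 0.443. Under that filter 61.5% of the calls of these genes and 51.8% of all calls were higher in 93-11, a contrast that was not tested. With 1 library left out, the median of the 15 genes ran from 1.61 to 2.28. Of 185 recomputed differences of single genes, 172 kept direction and call. Under quantile normalization LOC_Os01g53680 (0.37) and LOC_Os04g58110 (0.72) turned. With each library restored on its own to the lowest power of 10, LOC_Os11g05110 turned (0.35, not called), because 1 Nipponbare value drops 10 times. For the 7 genes with a fold of 5 to 20 whose lower values had lost their point, values 10 times higher, chosen after seeing the data, turned HXK8 (LOC_Os01g09460, -0.0174), LOC_Os06g13810 (-0.996), LOC_Os02g48360 (-0.43), LOC_Os05g40420 (-0.35) and LOC_Os03g14450 (-0.97), and 1 of the 7, LOC_Os10g33800, kept its call. That case needs both read numbers of a gene to end in 0. A fit with the replicate block called 9 and 6 genes, as without it (median 1.92). The correlation of replicate deviations between the cultivars was 0.0194 across 7269 genes, so no pairing by replicate number was seen. A pairing that moves few genes would not show in this value, and the restoration had drawn replicates together. With 2 libraries per cultivar, leaving one out assumes that the lone library varies like the other cultivar's.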
